A study of Mus musculus with 6 samples.

Results

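The immediate early transcription factor genes described here are Fos, Fosb, Fosl1, Jun, Junb, Jund, Egr1, Egr2, Ier2 and Atf3, 10 genes of the 55487 in the deposited table, chosen by name and found by their Ensembl identifiers. They were measured in the terminal ileum, the end of the small bowel, of 9-day-old C57BL/6 mice. The NEC group had 3 libraries and the control group 3. NEC is necrotizing enterocolitis, an inflammatory disease of the newborn bowel, modelled in these mice by combining 3 insults. Pups were gavaged with a hyperosmolar formula, breathed 5% O2 in 10 min spells, given 3 times daily during 4 days, and received lipopolysaccharide, a bacterial cell wall component, on days 6 and 7 after birth (4 mg/kg daily). The labels put the same treatment text on the controls, so how the controls were fed and handled is not stated. Whether each library is another animal is also not stated, and the p-values then measure only a spread among libraries that may be technical.

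Immediate early genes are switched on within minutes of a stimulus by factors already present in the cell, without new protein synthesis. Growth factors, stress and bacterial products reach them through MAP kinases, which act on promoter-bound factors such as SRF with its ELK partners, and CREB. FOS and JUN proteins pair to form AP-1, a dimer that binds the promoters and enhancers of many response genes. EGR proteins are zinc finger factors that bind GC-rich sites. The messages are short-lived, in part through AU-rich elements in their tails, so that their level follows recent signalling closely.

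None of the 10 genes was called higher in NEC ileum. Fos, the founding member, had the largest change: it was far above every control in NEC 1 and NEC 2 and within the control range in NEC 3, and it did not pass the test. Egr1 and Jund were called lower, as were 30.6% of all tested genes. Both calls were lost when the libraries were rescaled or when any 1 control was left out. Jun, Junb, Ier2 and Atf3 did not pass, and Fosb, Fosl1 and Egr2 were near the limit of detection in both groups. Values are FPKM, a fragment count corrected for transcript length and library depth, and so a level that can be compared between genes.

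The libraries held an estimated 16.9 to 18.6 M fragments in NEC and 15.2 to 16.2 M in control. NEC 1 stood apart from the other libraries: the 7SL RNA gene Rn7s1 held 42.7% of its total FPKM, against 27.3% to 32.2% in the others, and 8 smooth muscle markers summed to 162 FPKM in it, 735 and 733 FPKM in NEC 2 and 3, and 836 to 988 FPKM in the controls. Of the 6 ileal markers, 2 were called higher and 1 lower in NEC. Of all tested genes, 7.69% were called higher and 30.6% lower. The 6 summed to 254, 217 and 265 FPKM in NEC and to 222, 197 and 201 FPKM in control. Fabp6, the ileal bile acid-binding protein, was at 0.123, 0 and 10.4 FPKM in NEC and at 1.203, 1.23 and 2.45 FPKM in control. This single marker of the labelled tissue was thus listed at 0 in 1 library. In bulk tissue, fewer cells of a type and less RNA per cell cannot be told apart.

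Sequences upstream of the start sites of Fos, Jun, Junb and Atf3 are shown because elements in such stretches are known to carry the response of immediate early genes to kinases. RefSeq windows around the start (build GRCm38.p6) were found for 7 members, all but Fosl1, Egr1 and Ier2. The 150 bases before the start are printed 5′ to 3′ for 4 of them, with capitals for TGACG, the core of the cAMP response element bound by CREB and ATF proteins, for the related octamer TGACNTCA, and for the TATA box TATAAA, each searched on both strands. They lie at chr12:85473740-85473889 on the plus strand for Fos. On the minus strand they lie at chr4:95052223-95052372 for Jun, chr8:84978749-84978898 for Junb and chr1:191183334-191183483 for Atf3. The start is that of the RefSeq window, and a gene can have others. The Atf3 stretch lies inside the annotated gene span, which begins at 191218039 on the minus strand. Bases upstream of that outer end are not printed.
Fos: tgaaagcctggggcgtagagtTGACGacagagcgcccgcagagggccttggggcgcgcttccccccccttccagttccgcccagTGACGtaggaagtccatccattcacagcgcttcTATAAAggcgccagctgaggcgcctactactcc
Jun: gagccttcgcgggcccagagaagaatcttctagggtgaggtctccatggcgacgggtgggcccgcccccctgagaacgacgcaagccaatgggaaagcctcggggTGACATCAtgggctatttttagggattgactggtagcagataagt
Junb: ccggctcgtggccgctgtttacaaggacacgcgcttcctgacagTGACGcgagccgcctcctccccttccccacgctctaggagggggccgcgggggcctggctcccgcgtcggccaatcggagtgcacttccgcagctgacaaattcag
Atf3: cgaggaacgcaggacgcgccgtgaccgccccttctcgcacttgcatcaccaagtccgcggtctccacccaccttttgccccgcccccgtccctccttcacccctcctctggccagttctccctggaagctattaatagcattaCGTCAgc

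TGACG was in at least 1 window of 5 of the 7 members, Fos, Fosb, Junb, Egr2 and Atf3, and in 20.8% of all 32851 windows. In Fos it stood at positions -129 to -125 and -66 to -62 counted from the start site, in Junb at -106 to -102, in Fosb at -60 to -56, and in Atf3, on the other strand, at -7 to -3. Jun instead held TGACATCA at -45 to -38, a match to TGACNTCA, which was in 8.83% of windows. TATAAA was in the windows of Fos, at -33 to -28, and Junb, at 0 to 5, and in 13.6% of all. The Junb match began at the RefSeq start site of its window, so it is not in the printed stretch. That start lies upstream of the first base of the Junb gene span given below, 84978718 on the minus strand. Counted from that base, the Junb matches would lie farther upstream. The CArG box, the site of SRF, was found in Egr2 alone of the 7 and in 1.63% of all windows. Sites outside a window were not searched, so a gene without a match may still hold one. For Fos the window was chr12:85473640-85473939. The AP-1 site TGANTCA was in none of the 7 and in 7.81% of all windows, and the EGR site GCGNGGGCG was in Fosb and 5.55%. A gene can have several windows, as Egr2 does, so counts of members and shares of windows are not in like units. A motif with N can overlap another one counted here, and a match is a description of letters, not of binding.

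Transcript structure was compared with that of all tested protein-coding genes. The longest coding transcript had 1 exon in 4 of 10 members, Jun, Junb, Jund and Ier2, against 2.97% of tested protein-coding genes. The AU-rich pentamer ATTTA was denser in the 3′ untranslated region than the median of 1.31 per kb in 8 of 10 members, and densest in Fos with 4.91 per kb and Junb with 4.12 per kb. At least 3 pentamers were in 4 of 10 members, Fos, Jun, Egr2 and Atf3, and in 38.2% of tested protein-coding genes, a share close to that of the members. Ier2 had none in 755 bases.

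Fos (ENSMUSG00000021250, mm10 chromosome 12, 85473890 to 85477273) encodes the FOS partner of AP-1 that responds most sharply to stimuli. It was at 21.1, 12.4 and 2.09 FPKM in NEC 1, 2 and 3, against 2.18, 1.21 and 1.27 FPKM in control 1, 2 and 3. NEC 1 and NEC 2 were far above every control, while NEC 3 lay inside the control range, so the groups overlapped. The means were 11.9 ± 9.51 FPKM in NEC and 1.55 ± 0.541 FPKM in control (SD, n = 3 each). The log2 change of FPKM + 1 was 1.95 (SE 0.68, 95% interval 0.33 to 3.56), with an adjusted p of 0.0597 by limma with Benjamini-Hochberg adjustment over 15806 genes. The low values rested on few fragments, an estimated 82 in NEC 3 and 39 to 72 in the controls, against 751 and 474 in NEC 1 and 2. Without NEC 3 the change was 2.77 and passed (adjusted p = 0.00389, limma), and without NEC 1 it was 1.354 (adjusted p = 0.125).

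**Figure D1:**
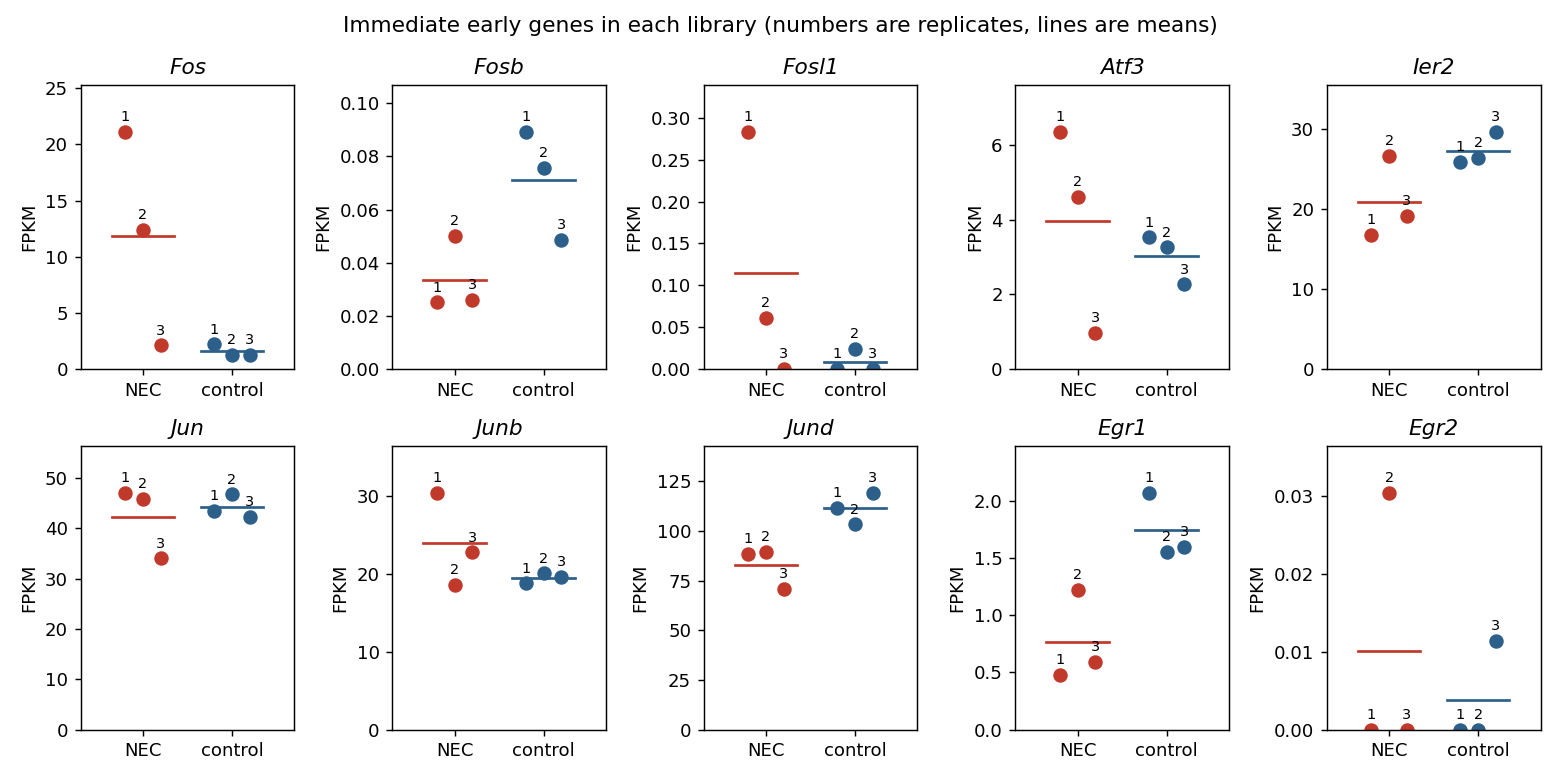
FPKM of the 10 genes in each library, with a separate linear axis starting at 0 for each gene. Points are libraries numbered by replicate, NEC in red on the left and control in blue on the right, and lines are group means. Fos and Atf3 are high in NEC 1 and 2 but not in NEC 3, where Atf3 is at 0.962 FPKM, below every control, and Egr1 and Jund are lower in all 3 NEC libraries than in any control.

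The other FOS members of the set were barely detected. Fosl1, which encodes FRA1, a FOS protein of migrating and injured epithelium (chromosome 19, 5447547 to 5455946), was at 0.283, 0.0608 and 0 FPKM in NEC and at 0, 0.0242 and 0 FPKM in control. The highest of these values, in NEC 1, corresponded to an estimated 9 fragments. Fosb, whose product also pairs with JUN proteins (chromosome 7, 19302696 to 19310051), was at 0.0250, 0.04998 and 0.0259 FPKM in NEC and at 0.0891, 0.0755 and 0.0485 FPKM in control, an estimated 2 to 5 fragments per library. Neither reached the mean of 1 FPKM needed for the test. Without that filter their log2 changes were 0.14 for Fosl1 and -0.05 for Fosb (adjusted p = 0.352 and 0.264, limma), on a scale that compresses such low values.

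Atf3 (chromosome 1, 191170296 to 191218039) encodes a stress-induced bZIP factor that pairs with JUN proteins and is also a target of the integrated stress response. It was at 6.34, 4.62 and 0.962 FPKM in NEC and at 3.52, 3.26 and 2.26 FPKM in control. NEC 1 and NEC 2 were above all controls and NEC 3 below all of them. The log2 change was 0.12 (95% interval -1.003 to 1.247), and the adjusted p was 0.851 by limma. The direction turned without NEC 1, NEC 2 or control 3, to -0.26, -0.07 and -0.02, and without NEC 3 the change was 0.69 and passed (adjusted p = 0.0388, limma).

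Jund and Jun had the highest mean levels of the set in each group. Jund (chromosome 8, 70698949 to 70700616), whose product is the JUN protein of resting cells, fell: it was at 88.3, 89.5 and 71.0 FPKM in NEC, against 112, 103 and 119 FPKM in control. All 3 NEC libraries were below all controls. The log2 change was -0.43 (SE 0.12, 95% interval -0.72 to -0.13; adjusted p = 0.0360, limma), where the median of all tested genes was -0.26. With TMM scaling, which brings the middle of the changes near 0 and moved the median of all tested genes to 0.01, the Jund change was -0.08 (adjusted p = 0.742, limma). The Jund call was also lost on leaving out NEC 2, NEC 3, control 1, control 2 or control 3, with changes of -0.48, -0.32, -0.42, -0.48 and -0.38 at adjusted p of 0.0547, 0.0524, 0.109, 0.0818 and 0.115 (limma).

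Jun (chromosome 4, 95049034 to 95052222), the transcriptionally most active JUN partner of FOS, was at 47.0, 45.8 and 34.0 FPKM in NEC and at 43.6, 46.8 and 42.4 FPKM in control. NEC 3 was the lowest library, and the other 5 lay close together. The log2 change was -0.08 with a 95% interval of -0.41 to 0.26 (adjusted p = 0.686, limma), and it was 0.27 with TMM scaling and 0.07 without NEC 3, not passing in either. Junb (chromosome 8, 84974484 to 84978718), a JUN protein that often opposes JUN, was at 30.3, 18.6 and 22.7 FPKM in NEC and at 18.8, 20.0 and 19.6 FPKM in control. NEC 1 and NEC 3 were above all controls and NEC 2 below them, and the log2 change was 0.26 (95% interval -0.15 to 0.67; adjusted p = 0.266, limma).

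Junb and Jund each overlap a gene on the other strand in the annotation, Prdx2 for Junb and Gm11175 for Jund, with at most 17.1 and 4.66 FPKM in NEC and 24.1 and 6.33 FPKM in control. Jun likewise overlaps Junos, at 0.515 FPKM at most in NEC and 1.09 in control, and Fosl1 overlaps Ccdc85b, at 1.88 FPKM at most in NEC and 2.96 in control. Whether the counting used strand was not given in the sources used here, so reads of such partners may not be separable.

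The balance within AP-1 was described by sums over each family, since FPKM is per length. With Fosl2, which encodes FRA2 and is not among the 10, the FOS family summed to 50.4, 34.7 and 22.3 FPKM in NEC and to 21.05, 20.1 and 21.2 FPKM in control. Fos made up 41.8%, 35.8% and 9.39% of that sum in NEC and 10.3%, 6.04% and 5.99% in control. Most of the FOS family RNA in every library was Fosl2, at 29.0, 22.2 and 20.1 FPKM in NEC and 18.8, 18.8 and 19.9 FPKM in control, a log2 change of 0.28 that did not pass (adjusted p = 0.150, limma). The JUN family summed to 166, 154 and 128 FPKM in NEC and to 174, 170 and 181 FPKM in control. Jund held 53.3% to 58.1% of the JUN sum in NEC and 60.7% to 65.8% in control. The FOS sum was 30.4%, 22.5% and 17.4% of the JUN sum in NEC and 11.7% to 12.1% in control. The groups did not overlap in this ratio, which was not tested. Groups were also apart for 59.1% of all tested genes in either direction and for 11.8% with NEC above control. In the NEC library with the lowest ratio, the FOS sum of 22.3 FPKM was just above the control sums. The JUN sum of that library, 128 FPKM, was the lowest of all.

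**Figure D2:**
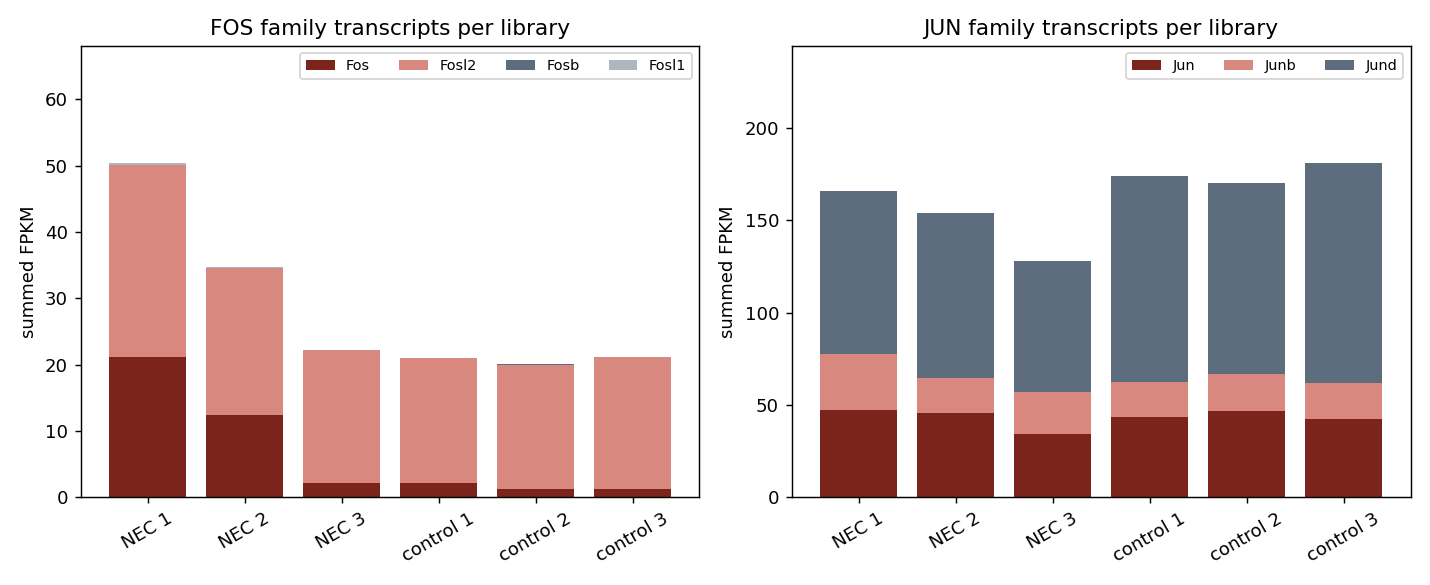
Summed FPKM of the FOS family and of the JUN family in each library, stacked by gene, with NEC libraries on the left of each panel. Fosl2 is the largest part of the FOS sum in all libraries, Fos adds 21.1 and 12.4 FPKM in NEC 1 and 2, and Jund is the largest part of the JUN sum throughout.

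Among the zinc finger genes, Egr1 fell. Egr1 (chromosome 18) encodes a factor induced by growth factors and injury. It was at 0.479, 1.22 and 0.591 FPKM in NEC, against 2.07, 1.55 and 1.60 FPKM in control, an estimated 36, 99 and 49 fragments in NEC against 145, 106 and 116 in control. The groups did not overlap. The log2 change was -0.65 (SE 0.18, 95% interval -1.09 to -0.22; adjusted p = 0.0325, limma). The call was lost with TMM scaling (-0.47, adjusted p = 0.0823, limma) and quantile normalization (-0.28, adjusted p = 0.266, limma), and without NEC 1, NEC 3, control 1, control 2 or control 3, with changes of -0.54, -0.59, -0.57, -0.70 and -0.69 at adjusted p of 0.0577, 0.0689, 0.108, 0.0813 and 0.0761 (limma). Egr2, a relative known from myelinating glia and lymphocytes, was listed at 0 in 4 libraries, with 0.0304 FPKM in NEC 2 and 0.0114 FPKM in control 3, and was not tested.

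Ier2 (chromosome 8, 84661331 to 84662852) encodes a nuclear protein induced by growth factors together with FOS and JUN genes. It was at 16.8, 26.7 and 19.1 FPKM in NEC and at 25.9, 26.4 and 29.6 FPKM in control. NEC 2 lay inside the control range and the other NEC libraries below it. The log2 change was -0.40 (95% interval -0.80 to 0.01; adjusted p = 0.108, limma), and without NEC 2 it was -0.58 and passed (adjusted p = 0.0325, limma).

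In all, 7 members passed the filter, of which 0 were called higher, 2 lower and 5 did not pass. Across all tested genes 7.69% were called higher, 30.6% lower and 38.2% in either direction. At an unadjusted p under 0.05, 1 member was higher, Fos, and 2 were lower. NEC and control ranges were apart in 2 of the 7, Jund and Egr1, both with NEC below control, against 59.1% of all tested genes in either direction and 47.3% with NEC below control. The median log2 change of the 7 was -0.08, and that of all tested genes -0.26. The shares of members called in each direction were thus near or below those of all tested genes.

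**Figure D3:**
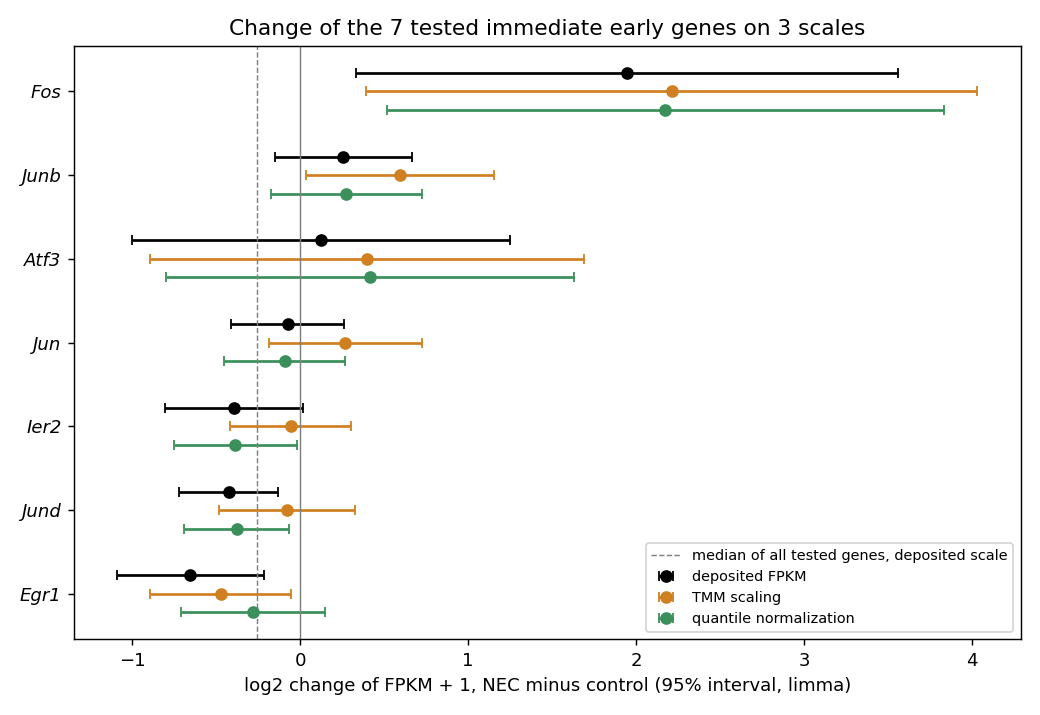
Log2 change of FPKM + 1, NEC minus control, of the 7 tested members on the deposited scale, with TMM scaling and with quantile normalization. Points are limma estimates and bars 95% intervals, and the dashed line marks the median of all tested genes on the deposited scale, -0.26, which is no reference for the other points, since that median is 0.01 with TMM scaling and 0.00 with quantile normalization. Fos lies highest on each scale with the widest intervals, and Jund moves from -0.43 on the deposited scale to -0.08 with TMM scaling.

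By level, the order in NEC was Jund, Jun, Junb, Ier2, Fos, Atf3, Egr1, Fosl1, Fosb and Egr2, and in control Jund, Jun, Ier2, Junb, Atf3, Egr1, Fos, Fosb, Fosl1 and Egr2. In control the ranges of neighbours were apart from Jund down to Atf3, while Egr1, at 1.55 to 2.07 FPKM, overlapped Fos, at 1.21 to 2.18 FPKM. In NEC the ranges of Jund and Jun, and of Jun and Junb, were apart, and those of Junb, Ier2 and Fos overlapped, as did those of Fos and Atf3 and of Atf3 and Egr1.

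Of 30 other immediate early genes listed, 25 were tested, of which 2 were called higher, 4 lower and 19 did not pass. Their median log2 change was 0.06, against -0.26 for all tested genes, of which 7.69% were called higher and 30.6% lower. Klf4, a factor of differentiated epithelium, rose to 38.5, 42.2 and 33.4 FPKM in NEC, against 26.2, 25.7 and 26.7 FPKM in control (log2 0.52, adjusted p = 0.0152, limma). Nr4a1, an orphan nuclear receptor induced with FOS and EGR genes, fell to 0.499, 1.18 and 1.27 FPKM in NEC, against 3.34, 2.93 and 2.23 FPKM in control (log2 -0.96). Ccn1, a secreted matrix protein formerly named Cyr61, fell by 0.97 and Ier5l by 0.97 on the log2 scale. With TMM scaling 2 were higher and 3 lower, and with quantile normalization 3 and 3. Without NEC 1 and NEC 2 there were 2 and 1 higher and 6 and 4 lower, and without NEC 3 there were 5 higher and 3 lower. Without control 1, 2 and 3 none was higher and 1, 1 and 2 were lower, and the calls of Klf4 and Ccn1 were lost without any 1 control (adjusted p up to 0.0662 and 0.0785, limma) and that of Nr4a1 without control 1 or 2 (up to 0.0618).

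Feedback genes switch MAP kinases off or shorten the life of the messages. Of 22 tested, 1 was called higher, 9 lower and 12 did not pass, where 7.69% of all tested genes were called higher and 30.6% lower. The median log2 change was -0.34, against -0.26 for all tested genes. Spry1, an inhibitor of receptor tyrosine kinase signalling, fell to 4.39, 7.89 and 6.10 FPKM in NEC, against 14.3, 13.7 and 13.6 FPKM in control (log2 -1.09, SE 0.18; adjusted p = 0.00938, limma). Its relatives Spry4 and Spred1 fell by 0.76 and 0.89, and Dusp10, a phosphatase of stress-activated kinases, fell by 1.14. Dusp1, the immediate early MAP kinase phosphatase, fell to 2.74, 2.15 and 1.86 FPKM in NEC, against 3.57, 3.24 and 3.51 FPKM in control (log2 -0.46, adjusted p = 0.0327, limma), and its change was -0.19 with TMM scaling and no longer passed.

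Zfp36 and Nab2 did not pass with all 6 libraries at equal weight, on the deposited scale, with TMM scaling or with quantile normalization. Zfp36 passed with sample weights and without NEC 3 (adjusted p = 0.0420 and 0.0328, limma). Nab2 passed with sample weights and without control 3 (adjusted p = 0.0480 and 0.0474, limma). Zfp36, whose product binds AU-rich elements and speeds decay of such messages, was at 14.4, 8.49 and 6.67 FPKM in NEC and at 5.93, 6.35 and 5.61 FPKM in control, and all NEC libraries were above all controls (log2 0.58, adjusted p = 0.103, limma). Nab2, a co-repressor of EGR proteins, was at 1.05, 1.14 and 1.48 FPKM in NEC and at 2.25, 2.47 and 1.49 FPKM in control (log2 -0.45, adjusted p = 0.0647, limma). In the feedback list, TMM scaling gave 2 higher and 6 lower and quantile normalization 1 and 5, and 6 were lower on leaving out NEC 2 and 3, 1 and 7 on leaving out control 1, 2 and 3, with none higher in these 4 fits. Without NEC 1 there were 2 higher and 9 lower, and without NEC 3 there were 3 and 7. The Dusp1 call was also lost on leaving out NEC 2, NEC 3 or 1 of the controls (largest adjusted p 0.110, limma), that of Spred1 without control 1 or 2 (up to 0.0579), and those of Spry4 and Dusp10 without control 2 (0.0502 and 0.0501).

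Upstream of the members, kinases and promoter-bound factors moved both ways. Of 28 listed, 25 were tested, of which 3 were called higher, 5 lower and 17 did not pass (median -0.23). The shares of all tested genes were 7.69% higher and 30.6% lower. The MAP kinase kinase genes Map2k2 and Map2k3, which activate the ERK and p38 branches, rose by 0.88 and 0.65 on the log2 scale, Map2k3 to 9.49, 9.99 and 8.76 FPKM in NEC, against 5.27, 6.00 and 5.67 FPKM in control (adjusted p = 0.00750, limma). Map2k6, the other p38 kinase kinase, fell by 1.03 and Elk3, a partner of SRF, by 0.83. Srf itself was at 3.27, 5.95 and 7.16 FPKM in NEC and at 8.10, 8.57 and 9.14 FPKM in control, all NEC libraries below all controls, and did not pass (log2 -0.62, adjusted p = 0.0755, limma). With TMM scaling and with quantile normalization the list had 5 higher and 2 lower. Without NEC 1 it had 5 and 9, without NEC 2 it had 2 and 4, and without any 1 control 2 and 0, when the calls of Map2k6 and Elk3 were lost (adjusted p up to 0.0808, limma). Without NEC 1 or NEC 3 Srf passed as lower, at -0.35 and -0.82.

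Of the other AP-1 dimer partners, 13 of 16 were tested, with 1 higher, 1 lower and 11 not passing (median 0.17). Among all tested genes 7.69% were called higher and 30.6% lower. Mafk, a small MAF protein, rose to 15.0, 13.5 and 9.26 FPKM in NEC, against 7.71, 7.59 and 7.83 FPKM in control (log2 0.62, adjusted p = 0.0313, limma). Atf7, a relative of ATF2, fell by 0.46, a call lost with TMM scaling (-0.16) and quantile normalization (-0.23). Ddit3, the stress factor CHOP, was at 24.3, 15.9 and 9.85 FPKM in NEC and at 9.37, 8.45 and 11.05 FPKM in control and did not pass (adjusted p = 0.117, limma). The annotation holds 2 overlapping identifiers of this name, and the more abundant one is given, so its value is uncertain. Leaving out NEC 2 or 1 of the controls ended the calls of Mafk and Atf7 (largest adjusted p 0.0957 and 0.0990, limma). Without NEC 1 there were 2 higher and 1 lower, and without NEC 3 there were 5 higher and 1 lower, with Ddit3 at 0.97 and passing.

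Genes known as targets of AP-1 or EGR factors did not follow 1 direction. Of 28 listed, 19 were tested, of which 5 were called higher, 5 lower and 9 did not pass (median -0.12). Across all tested genes 7.69% were called higher and 30.6% lower. The genes described next were those of smallest p, in either direction. Mmp10, a matrix metalloprotease of injured epithelium, rose to 18.0, 4.73 and 6.66 FPKM in NEC, against 1.12, 0.839 and 0.681 FPKM in control (log2 2.33, SE 0.42; adjusted p = 0.0108, limma). Ptgs2, the inducible cyclooxygenase, fell to 0.579, 1.09 and 1.11 FPKM in NEC, against 2.77, 2.81 and 3.01 FPKM in control (log2 -1.02, SE 0.14; adjusted p = 0.00676, limma). Cd44, a hyaluronan receptor, and Pdgfa, a growth factor ligand, fell by 0.76 and 0.83. The cytokine genes Il6, Il1b, Tnf, Cxcl1 and Ccl2 did not reach a mean of 1 FPKM and were not tested. With TMM scaling 6 were higher and 3 lower, and with quantile normalization 6 and 4. Without control 1, 2 and 3 there were 1, 1 and 2 higher and 3 lower each, and without NEC 2 there were 4 higher and 3 lower.

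**Figure D4:**
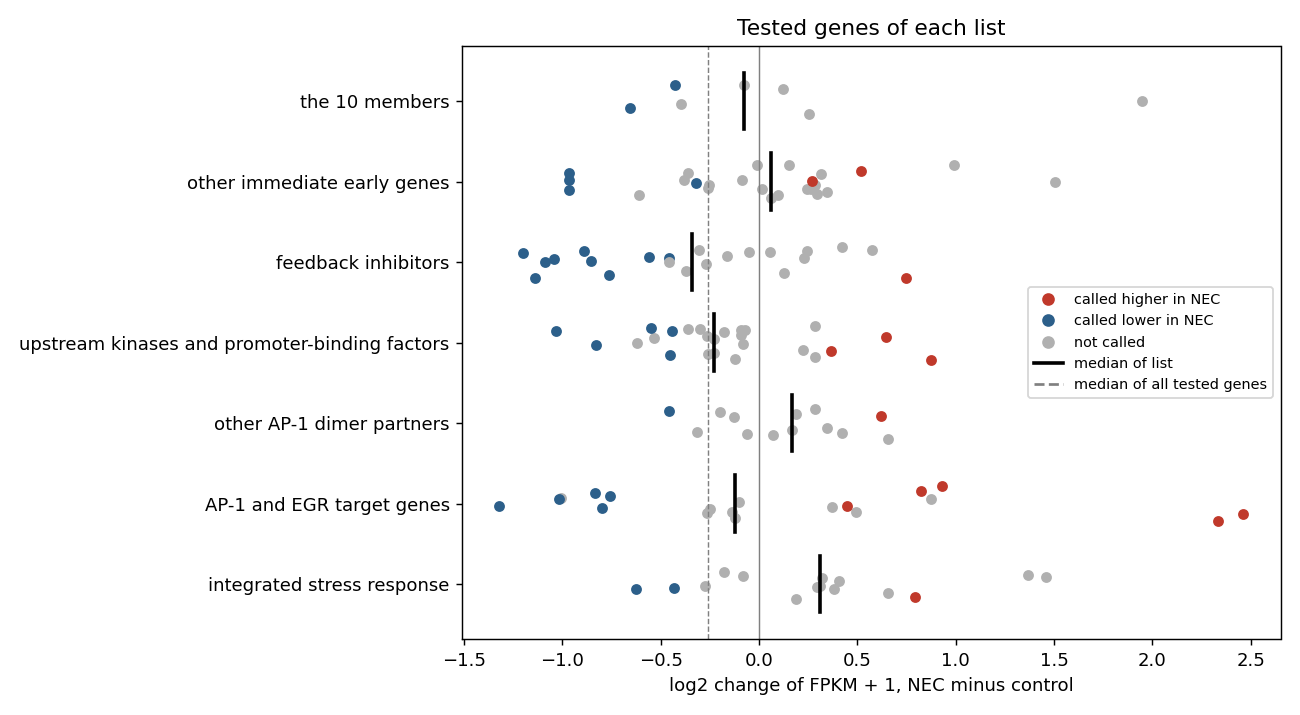
Log2 change of FPKM + 1, NEC minus control, of the tested genes of each list, with red for genes called higher, blue for called lower and grey for not called. Black bars are list medians and the dashed line is the median of all tested genes, -0.26. Each list holds genes on both sides of 0, and the feedback inhibitors have 9 of their 22 tested genes called lower, where 30.6% of all tested genes were.

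Atf3 also belongs to the integrated stress response, in which ATF4 drives genes of amino acid supply. All 15 listed genes were tested, and 1 was called higher, 2 lower and 12 did not pass (median 0.31). Calls over all tested genes were 7.69% higher and 30.6% lower. Asns, asparagine synthetase, rose to 15.3, 14.3 and 7.96 FPKM in NEC, against 6.18, 6.15 and 7.40 FPKM in control (log2 0.79, adjusted p = 0.0381, limma). Eif2ak4, the kinase GCN2 that senses amino acid lack, fell by 0.63 and Sesn2, a stress-induced inhibitor of mTORC1, by 0.43. With TMM scaling 2 were higher and 1 lower, the Sesn2 change being -0.10 and not passing (its call was lost on leaving out any library but NEC 2, largest adjusted p 0.126, limma), and with quantile normalization 4 were higher and 1 lower. Without NEC 3 there were 5 higher and 1 lower, without NEC 2 there were 0 and 2, and without NEC 1 there were 1 and 1. Without control 1, 2 and 3 none was higher and 0, 0 and 1 were lower, Eif2ak4 reaching 0.0538 and 0.0503 without control 1 and 2, and the Asns call was lost without any 1 library except NEC 3 (adjusted p up to 0.112, limma).

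Genes with a pattern like that of Fos were sought among 5837 protein-coding genes of at least 5 FPKM. Over the 6 libraries, whose values share depth and group, Pearson's r with Fos was highest for Wsb2, Tm4sf4 and Mob1b (0.989, 0.988 and 0.987). Tm4sf4, which encodes a membrane protein of the gut, was at 137, 63.7 and 20.4 FPKM in NEC and at 15.7, 13.8 and 10.4 FPKM in control. Its log2 change was 2.03 (adjusted p = 0.0418, limma), a call lost on leaving out any library but NEC 3. Wsb2 and Mob1b changed far less, by 0.22 and 0.27, and did not pass (adjusted p = 0.108 and 0.116, limma). With TMM scaling their changes were 0.56 and 0.59 and passed. For Egr1, r was highest for Prdx1, Rasa1 and Ehmt2 (0.995, 0.994 and 0.993). Their log2 changes were -0.38, -0.24 and -0.26, and with TMM scaling -0.04, 0.07 and 0.08.

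Markers of several cell types differed between the groups, and those of others did not. The 7 fibroblast markers summed to 96.6, 256 and 295 FPKM in NEC and to 538 to 671 FPKM in control, and all 7 were called lower. Of 6 endothelial markers 4 were called lower, as were 6 of 7 stem and cycling cell markers and 4 of 5 tested neuronal and glial ones. By contrast, 8 of 10 enterocyte markers were called higher. Erythroid markers were lower in 4 of 5 tested, goblet, Paneth and enteroendocrine ones in 3 of 9, and macrophage and dendritic ones in 2 of 7. The 2 tested lymphocyte and 2 tested neutrophil markers gave no call. Across all tested genes 30.6% were called lower and 7.69% higher. The 8 smooth muscle markers gave no call. In 6 of them all NEC libraries were below all controls, as in 47.3% of all tested genes. Neutrophil markers summed to 41.3 to 47.1 FPKM in NEC and to 3.64, 45.4 and 44.8 FPKM in control, and 4 of the 7 were at 0 in at least 1 library. The fibroblast, smooth muscle and endothelial sums were lowest in NEC 1. So were those of stem and cycling cells, of goblet, Paneth and enteroendocrine cells, and of neurons and glia. The sums of the other lists were lowest in another library. Egr1 and Srf were also lowest, and Fos highest, in NEC 1. The part of tissue makeup in the Egr1, Jund, Fos, feedback and target values was not tested.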

How the data were processed

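The 6 libraries hold terminal ileum RNA. The tools named per the submitters' processing notes are Cuffdiff, HISAT2 and SAMtools 1.3.1, and the build is mm10. The annotation and any use of strand are not given in the sources used here. No unit stands in the deposited table, and its values were taken to be FPKM computed by the authors. Of values under 30 fragments in single-transcript genes of 1000 to 6000 bases, 98.5% to 99.0% were whole within 0.05 fragments, which gave the depth estimates. Fragments of other genes were scaled by their longest coding transcript and cover counting error only. Columns beginning with N were read as NEC. Of 55487 identifiers 55227 matched GENCODE M21.

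Log2(FPKM + 1) of the 15806 genes whose mean reached 1 FPKM was fitted with limma 3.58.1 (R 4.3.3, trended prior), with group as the only term and calls at a Benjamini-Hochberg adjusted p under 0.05. Such fold changes understate those of low genes. The fit was tested on simulated data. With 3 against 3 no exact permutation test of a gene can go below p = 0.1. Alternatives were TMM (trimming 30% and 5%, unweighted), quantile normalization, a pseudocount of 0.1, a filter at 5 FPKM or none, sample weights, no trend, a replicate block, and the omission of each library. Members, lists and the naming rule (all members, up to 4 genes of smallest p per list, Fosl2, Dusp1, Zfp36, Nab2, Srf, 3 genes most like Fos and 3 like Egr1) were chosen with earlier results of these data known. Figures used matplotlib 3.10.9.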

Additional observations from a re-analysis of the deposited data

How the results depend on the processing

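Over all tested genes, 1215 were called higher and 4829 lower in NEC. TMM scaling gave 2655 higher and 2264 lower, quantile normalization 2202 and 2387, and a filter at 5 FPKM 1746 lower. Leaving out each library in turn gave 481 to 1584 higher and 1004 to 5302 lower. Of the members, 0 were called higher and 2 lower. With sample weights 1 was higher, Fos (adjusted p = 0.0183, limma), and leaving out each library gave 0 to 2 higher and 0 to 2 lower. Unfiltered, 0 were lower, and the filter at 5 FPKM, which drops Egr1, gave 1. There were 0 with TMM scaling or quantile normalization. No pairing by replicate number was seen. Same-numbered libraries correlated at -0.051, -0.007 and -0.074 in their deviations from group means, and none of the 3 was the best match of its NEC library. Differently numbered libraries reached only 0.078, and with 3 libraries per group such small values cannot exclude a pairing. With the replicate block 1 member was higher, Fos (adjusted p = 0.0412, limma), and 0 were lower. Directions turned for Jun, to 0.268 with TMM scaling and 0.070 without NEC 3 (omissions gave -0.158 to 0.070), for Atf3, to -0.259, -0.067 and -0.020 without NEC 1, NEC 2 and control 3 (omissions gave -0.259 to 0.692), and for Rasa1 and Ehmt2, to 0.068 and 0.078 with TMM scaling. The cause was not tested. Of 644 values of 47 named genes under 14 alternatives, 509 kept direction and side of the threshold, 103 lost a call, 25 gained one and 7 turned. Depth limits Fosb, Fosl1 and Egr2, at 9 fragments or fewer per library.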

Other observations

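Several stress and growth factor genes differed widely between the NEC libraries. They were chosen after their values were seen, so they are values only. Areg, which encodes the EGF receptor ligand amphiregulin, was at 35.1, 33.8 and 5.12 FPKM in NEC 1, 2 and 3 and at 2.27, 2.97 and 2.54 FPKM in control, a log2 change of 2.46 (adjusted p = 0.0288, limma) whose call was lost on leaving out NEC 1, NEC 2 or 1 of the controls (largest adjusted p 0.0866). Sgk1, a kinase gene induced by glucocorticoids and serum, was at 78.0, 36.3 and 11.5 FPKM in NEC and 10.9, 10.4 and 10.8 FPKM in control. Trib3 and Chac1, targets of the integrated stress response, were at 18.2, 6.31 and 0.930 FPKM and at 11.2, 8.85 and 0.884 FPKM in NEC, against 1.21, 1.12 and 1.77 FPKM and 1.52, 0.803 and 1.88 FPKM in control. Klf6 was at 48.0, 39.1 and 21.1 FPKM in NEC and 29.0, 28.7 and 27.3 FPKM in control. Socs3, a feedback inhibitor of cytokine signalling, was highest in NEC 1, at 53.4, 9.78 and 10.9 FPKM in NEC and 8.86, 7.85 and 9.18 FPKM in control. Dusp6, a phosphatase of ERK, was the called rise of the feedback list, at 9.54, 12.7 and 7.08 FPKM in NEC and 4.94, 5.84 and 5.09 FPKM in control (log2 0.74, adjusted p = 0.0269, limma), a call lost on leaving out NEC 2 or 1 of the controls (largest adjusted p 0.0885).

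In the list of other immediate early genes, which holds Sgk1, Klf6 and Socs3, 25 genes were tested. Of these, 15 were above all controls in NEC 1, 11 in NEC 2 and 5 in NEC 3, and 8, 11 and 18 were below all controls, and the difference between libraries was not tested. Among all tested genes, 19.5%, 22.1% and 21.8% were above all controls in NEC 1, 2 and 3, and 68.8%, 60.8% and 58.2% below.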
